A study of Mus musculus with 4 samples.

Results

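Cx3cr1, Cd72, Tmem119, Gpr34 and Fcrls are 5 of the 16308 genes counted in sorted leukocytes of the mouse small-intestinal muscularis externa after surgical injury. They were chosen by their measured levels in these same libraries, as macrophage (Mφ) genes that also mark microglia, so their levels and ratios are given as a description and no test is attached to them. CD45+ cells were sorted from the muscularis externa of C57BL/6J mice (WT) and of Ccr2-/-; B6.129S4-Ccr2tm1Ifc/J mice (CCR2 KO), all female and 12 weeks old, 24 h or 72 h after intestinal manipulation, which every group underwent. Cells of several mice were pooled into 1 library per group (10x Genomics 3′ version 3 chemistry), so there were 4 libraries, no replicate and no unmanipulated control among those analysed here. Each comparison below is of 2 libraries, and the intervals given are exact 95% intervals that cover counting error only.

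Cx3cr1 encodes the receptor for fractalkine, a chemokine that is held on the cell surface or shed by proteases, and it is carried by resident Mφs of the gut wall, microglia and patrolling monocytes. Cd72 encodes a lectin-like co-receptor, best known on B cells, which binds the semaphorin Sema4d and recruits the phosphatase Ptpn6. Gpr34 encodes a receptor for lysophosphatidylserine, Fcrls an Fc-receptor-like scavenger molecule, and Tmem119 a transmembrane protein, and the last 3 are widely used to tell microglia from other brain Mφs.

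The genes lie on 5 different chromosomes (GENCODE annotation of GRCm38). Cx3cr1 spans chr9:119901616-120069879, Cd72 chr4:43446462-43454628, Tmem119 chr5:113793729-113800516 and Fcrls chr3:87250758-87263738, all on the minus strand, and Gpr34 spans chrX:13632089-13640858 on the plus strand. The 250 bases before the RefSeq start were at hand for 3 of the 5, and are shown because these genes were detected together in single Mφs. Capitals mark GAGGAA or its reverse complement TTCCTC, the core of many sites of the myeloid factor PU.1 and its relatives. The windows are chr9:120068297-120068546, chr4:43454627-43454876 and chr3:87263525-87263774, in that order, and each is printed 5′ to 3′ on the gene's own minus strand. The RefSeq starts of Cx3cr1 and Fcrls lie inside the GENCODE spans given above, which include other transcripts:
Cx3cr1: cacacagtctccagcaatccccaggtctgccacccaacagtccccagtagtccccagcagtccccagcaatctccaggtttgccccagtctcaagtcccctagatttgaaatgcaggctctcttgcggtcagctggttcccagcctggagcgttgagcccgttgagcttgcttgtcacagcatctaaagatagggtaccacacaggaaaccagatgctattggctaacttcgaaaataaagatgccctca
Cd72: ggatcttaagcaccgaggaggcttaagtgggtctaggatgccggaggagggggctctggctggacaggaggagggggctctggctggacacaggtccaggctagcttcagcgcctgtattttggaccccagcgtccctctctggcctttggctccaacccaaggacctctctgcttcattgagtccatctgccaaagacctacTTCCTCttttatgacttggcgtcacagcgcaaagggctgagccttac
Fcrls: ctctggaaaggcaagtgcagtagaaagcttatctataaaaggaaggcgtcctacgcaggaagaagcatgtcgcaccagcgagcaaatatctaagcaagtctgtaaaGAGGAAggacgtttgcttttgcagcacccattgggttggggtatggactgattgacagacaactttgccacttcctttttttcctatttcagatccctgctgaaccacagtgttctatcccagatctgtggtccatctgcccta
The letters occurred once before Cd72, where the match lies on the opposite strand with its first base 47 bases upstream of the start, and once before Fcrls, on the gene's strand 144 bases upstream. The Cx3cr1 window held 0 matches, and 23.3% of 32851 such windows in the genome held at least 1, so the motif is common and a match does not mark a used site.

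The files held 5811 cells, between 1048 and 1774 per library, with 9736725 to 21206308 unique molecular identifiers (UMIs, each standing for 1 captured transcript). Cells were assigned to leukocyte classes by marker lists that exclude the 5 genes, which gave 1288 Mφ-gated cells (monocytes and Mφs together) in WT at 24 h, 216 in CCR2 KO at 24 h, 909 in WT at 72 h and 140 in CCR2 KO at 72 h. The gated cells carried the label's markers, since all 7 Mφ markers reached 20 CPM (UMIs per 1000000 UMIs of the same class and library) in every library. Their summed level was 15905, 14336, 20441 and 9560 CPM in that order, so the Mφ-gated cells of CCR2 KO at 72 h were lowest in the very markers of their gate. They also held the highest share of dividing cells, as 65 of 140 held transcripts of at least 2 of 6 cell-cycle genes, against 80 of 909 in WT at 72 h, 9 of 216 in CCR2 KO at 24 h and 17 of 1288 in WT at 24 h. In the same library 90 of 140 had more than 5% mitochondrial UMIs, against 254 of 1288, 34 of 216 and 307 of 909 in WT 24 h, CCR2 KO 24 h and WT 72 h. Ccr2, the gene targeted in the KO mice, stood at 759 and 1067 CPM in WT Mφ-gated cells at 24 h and 72 h, and at 95.6 and 90.4 CPM in CCR2 KO. Whether the remaining 3′ tags lie outside the deleted part of Ccr2 is not given in the sources used here. No 2 libraries shared more than 1 cell barcode.

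Transcripts of the 5 genes came mainly from Mφ-gated cells. These cells held 97.7% of 3683 Cx3cr1 UMIs, 99.0% of 696 Tmem119 UMIs and 97.7% of 3756 Fcrls UMIs. The shares were lower for Cd72, at 83.0% of 3502 UMIs, and for Gpr34, at 80.9% of 974 UMIs. The gate therefore describes Cx3cr1, Tmem119 and Fcrls almost in full, whereas Cd72 and Gpr34 had a second source among lymphocytes.

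**Figure D1:**
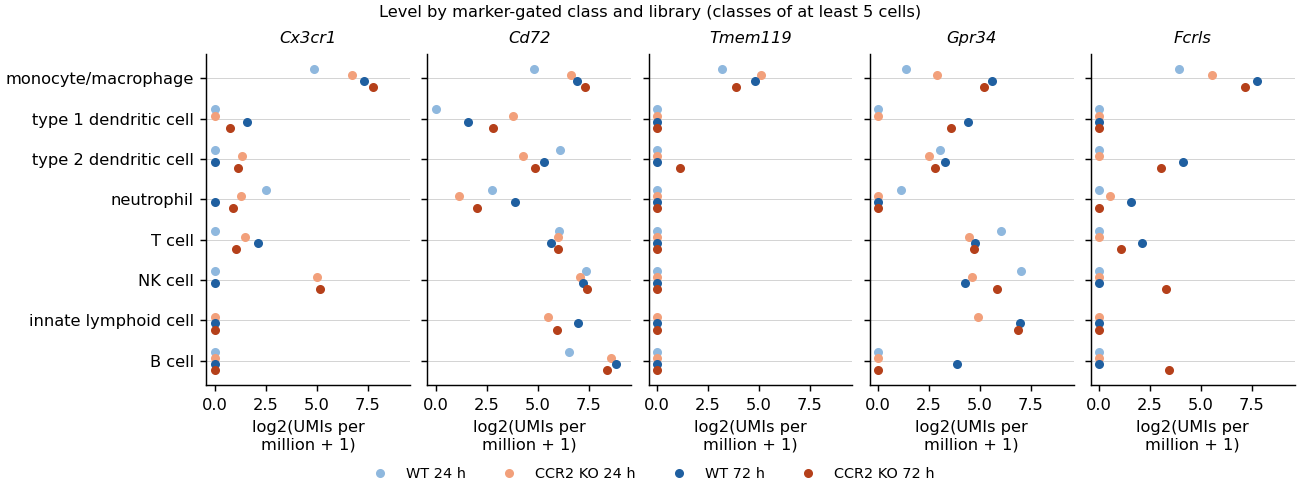
Level of each gene, as log2(CPM + 1) on the horizontal axis, in each leukocyte class and library with at least 5 cells, 1 point per library. Among the plotted classes Cx3cr1, Tmem119 and Fcrls stood highest in the Mφ-gated cells. Cd72 was highest in B cells in 3 of the 4 libraries (339 to 457 CPM, with NK cells higher in WT 24 h, on 5 against 3 UMIs). Gpr34 reached 127 CPM in innate lymphoid cells and 131 CPM in NK cells, values that rest on 7 and 4 UMIs.

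Cx3cr1 had few UMIs outside the Mφ gate. It was at 1.54 CPM in neutrophils and 1.62 CPM in T cells over the 4 libraries, and at 0 UMIs in the 60 B cells. NK cells held 12 Cx3cr1 UMIs (24.1 CPM) in 3 cells, 8 of them in 1 cell. Apart from these, 2 of 5 cells with mast cell or basophil markers held 16 Cx3cr1 UMIs, a level of 428 CPM over the class. These 2 cells came from CCR2 KO 24 h, where the class was at 658 CPM, above the Mφ-gated cells at 107 CPM. Tmem119 was at 0 UMIs in T cells, B cells, NK cells and neutrophils, and Fcrls reached 8.30 CPM in type 2 dendritic cells (DC2). These are few cells, and the values in NK and mast or basophil-gated cells rest on 3 and 2 cells.

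Cd72 was higher in B cells, where it is a textbook marker, than in NK or T cells in 3 of the 4 libraries. Its level there was 91.3, 393, 457 and 339 CPM in WT 24 h, CCR2 KO 24 h, WT 72 h, then CCR2 KO 72 h, over only 5, 33, 12 and 10 cells. In NK cells it was 164, 133, 148 and 173 CPM, above the B cells in WT 24 h, and in T cells 65.5, 62.7, 49.995 and 62.1 CPM. The WT 24 h values rested on 3, 5 and 5 UMIs in B, NK and T cells. Their intervals overlapped (18.8 to 267, 53.2 to 383 and 21.3 to 153 CPM), so the counts do not order these classes there. The NK and T cell values lay within a narrow range, which the few counts of WT 24 h cannot show for that library. Cd72 ranged more widely in the Mφ-gated cells, from 27.5 to 158 CPM. Within the Mφ gate B cell markers were low, at 6.71, 12.7, 62.7 and 27.9 CPM summed over 6 markers, and only 1 of the 6 reached 20 CPM in either 72 h library. Without the cells that held at least 2 UMIs of B cell or antibody genes (1, 1, 7 and 1 cells), the Cd72 differences on log2 were 1.83 and 0.39 for CCR2 KO to WT at 24 h and 72 h, and 2.10 and 0.65 for 72 h to 24 h in WT and CCR2 KO.

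Gpr34 differed from Cd72 in its sources outside the gate. Innate lymphoid cells held 29.2, 127 and 115 CPM in CCR2 KO 24 h, WT 72 h, then CCR2 KO 72 h, with no such cell in WT at 24 h. These levels rested on 2, 7 and 19 UMIs in 10, 9 and 19 cells. NK cells held 131, 23.5, 18.5 and 56.2 CPM in WT 24 h, CCR2 KO 24 h, WT 72 h, then CCR2 KO 72 h, and T cells 65.5, 21.5, 26.7 and 25.1 CPM. At 24 h the level of Gpr34 in T cells was thus above that in the Mφ-gated cells of the same library, which was 1.64 CPM in WT and 6.46 CPM in CCR2 KO. The WT 24 h values for T and NK cells came from 12 and 6 cells. The NK cell values of CCR2 KO 24 h and WT 72 h rested on 3 and 2 UMIs.

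In the Mφ-gated cells the levels of all 5 genes were lowest in WT at 24 h. Cx3cr1 was at 28.1 CPM (interval 25.8 to 30.5) in WT 24 h, 107 CPM (97.1 to 118) in CCR2 KO 24 h, 159 CPM (152 to 166) in WT 72 h and 219.7 CPM (201 to 239) in CCR2 KO 72 h. The order was the same for Cd72, at 27.5 (25.2 to 29.95), 99.6 (89.7 to 110.3), 121 (115 to 127) and 158 CPM (142 to 174). For both genes no interval overlapped a neighbour's, so the 4 libraries were set apart beyond the counting error of UMIs, and CCR2 KO at 72 h was highest. These intervals leave out the spread between cells. The 399 and 520 Cx3cr1 UMIs of CCR2 KO at 24 h and 72 h came from 42 and 73 cells. The order of the 72 h libraries depended on which cells were counted, as given below.

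The 3 genes best known from microglia were ordered otherwise. Tmem119 was at 8.30 CPM (7.07 to 9.68) in WT 24 h, 34.2 (28.5 to 40.7) in CCR2 KO 24 h, 27.4 (24.6 to 30.3) in WT 72 h and 13.9 (9.595 to 19.6) in CCR2 KO 72 h. Gpr34 was at 1.64 (1.12 to 2.32), 6.46 (4.14 to 9.61), 48.3 (44.7 to 52.2) and 35.5 CPM (28.3 to 43.9) in the same order, and Fcrls at 14.2 (12.6 to 16.0), 46.0 (39.4 to 53.5), 216 (208 to 223) and 141 CPM (126 to 157). Gpr34 and Fcrls were highest in WT at 72 h. Tmem119 was highest in CCR2 KO at 24 h, although its interval overlapped that of WT at 72 h, and the intervals of WT 24 h and CCR2 KO 72 h overlapped as well. In CCR2 KO at 72 h, 1 cell held 17 of the 33 Tmem119 UMIs, and without that cell the level was 6.90 CPM.

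**Figure D2:**
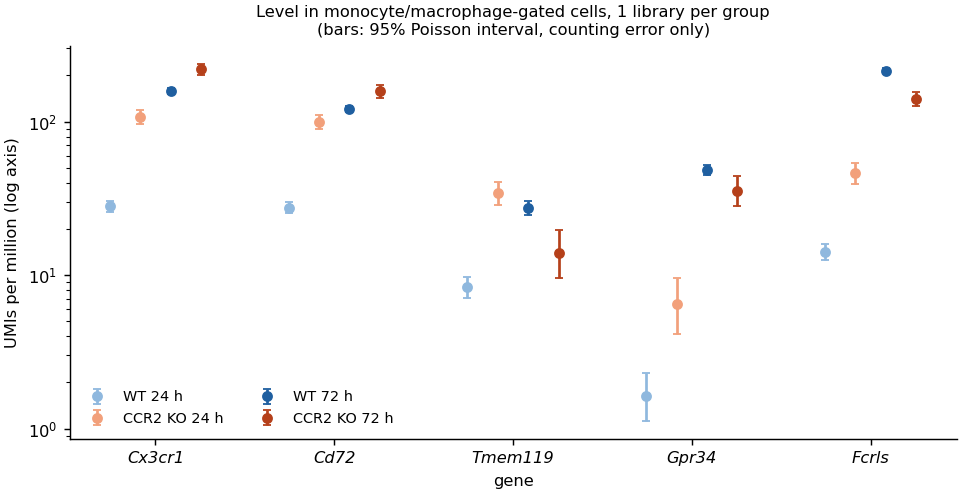
Level of each gene in the Mφ-gated cells of the 4 libraries (CPM, log scale; points are 1 library each, bars are exact Poisson 95% intervals of the UMI count). Cx3cr1 and Cd72 were highest in CCR2 KO at 72 h (219.7 and 158 CPM), Gpr34 and Fcrls in WT at 72 h (48.3 and 216 CPM) and Tmem119 in CCR2 KO at 24 h (34.2 CPM).

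The first comparison asks how Mφ-gated cells without Ccr2 differed from WT at 24 h, that is, without the receptor through which monocytes leave the bone marrow. All 5 genes were higher in CCR2 KO. The ratio of CPM was 3.82 (3.35 to 4.36) for Cx3cr1, 3.62 (3.16 to 4.14) for Cd72, 4.12 (3.24 to 5.23) for Tmem119, 3.94 (2.22 to 6.90) for Gpr34 and 3.24 (2.66 to 3.94) for Fcrls. On log2(CPM + 1), the scale used for counting changed genes, the differences were 1.90, 1.82, 1.92, 1.499 and 1.63, in the same order. Of the 5 genes, 4 reached 20 CPM in at least 1 of the 2 libraries, the level required to be counted as tested, and their median was 1.86 against −0.06 for all 5881 genes tested. All 4 of the 4 lay at least 2-fold higher in CCR2 KO, where 2.64% of all genes tested did and 1.04% lay at least 2-fold lower. Gpr34 was not among the genes tested. Without cells that held a cell-cycle transcript, Fcrls was under 2-fold, at 0.74. The genes had been picked with this contrast known, so nothing is read from that count.

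At 72 h the same contrast split the genes. Cx3cr1 and Cd72 were higher in CCR2 KO, with ratios of 1.38 (1.25 to 1.52) and 1.30 (1.16 to 1.46). Tmem119, Gpr34 and Fcrls were lower, with ratios of 0.509 (0.345 to 0.728), 0.734 (0.578 to 0.923) and 0.655 (0.583 to 0.733). None of the 5 was 2-fold apart on log2(CPM + 1), where the differences were 0.46, 0.38, −0.93, −0.44 and −0.61, while 4.77% of 6420 genes were at least 2-fold higher and 2.1% at least 2-fold lower and the median over all genes was 0.12. Tmem119 lay close to the 2-fold line, at −1.08 with TMM scaling and −1.79 without the cell that held most of its UMIs in each library. Fcrls was past it, at −1.11, among cells with at most 5% mitochondrial UMIs. The direction for Cx3cr1 and Cd72 depended on which cells were counted. Among cells with at most 5% mitochondrial UMIs (602 in WT, 50 in CCR2 KO) Cx3cr1 stood at 169 and 142 CPM and Cd72 at 141 and 91.5 CPM, below WT in both cases. Among cells with no cell-cycle transcript (648 in WT, 54 in CCR2 KO) Cx3cr1 was at 156 and 142 CPM. Among cells with fewer than 2 of the cell-cycle genes (829 in WT, 75 in CCR2 KO) Cx3cr1 was at 157 and 203 CPM. The part that proliferation or mitochondrial content has in the 72 h contrast was not tested.

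Between 24 h and 72 h in WT, the level of all 5 genes rose, by 3.30-fold to 29.5-fold. The ratio of 72 h to 24 h was 5.66 (5.15 to 6.23) for Cx3cr1, 4.40 (3.99 to 4.86) for Cd72 and 3.30 (2.73 to 3.99) for Tmem119. It was 15.2 (13.4 to 17.2) for Fcrls and 29.5 (20.7 to 43.5) for Gpr34, which went from 32 UMIs in 1288 cells to 648 UMIs in 909 cells. On log2(CPM + 1) the 5 differences were 2.46, 2.10, 1.61, 4.22 and 3.83 in the order Cx3cr1, Cd72, Tmem119, Gpr34, Fcrls. By the 2-fold rule 5 of 5 were higher, where 6.64% of 6205 genes were higher and 5.67% lower, with a median of −0.03. The genes had been picked with their levels in these libraries known, so nothing is read from that count either.

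In CCR2 KO the genes moved less from 24 h to 72 h, and not all one way. The ratio was 2.04 (1.79 to 2.34) for Cx3cr1, 1.58 (1.37 to 1.83) for Cd72, 5.49 (3.45 to 9.04) for Gpr34 and 3.06 (2.54 to 3.71) for Fcrls, but 0.408 (0.269 to 0.602) for Tmem119. On log2(CPM + 1) the differences were 1.03, 0.66, −1.24, 2.29 and 1.59 for Cx3cr1, Cd72, Tmem119, Gpr34 and Fcrls. By the 2-fold rule 3 of 5 were higher and 1 of 5 lower, against 9.25% and 4.17% of 6456 genes, with a median of 0.14 over all genes. Nothing is read from these counts, as the genes were picked with their levels known. Cx3cr1 lay on the 2-fold line and was under it, for example, at 0.79 with TMM scaling, 0.63 with clusters in place of gates and 0.48 among cells with at most 5% mitochondrial UMIs. The lower Tmem119 was under 2-fold, at −0.51 and −0.85, among cells with at most 5% mitochondrial UMIs and among cells with no cell-cycle transcript. The 4 comparisons share libraries in pairs, and their values are set side by side only.

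**Figure D3:**
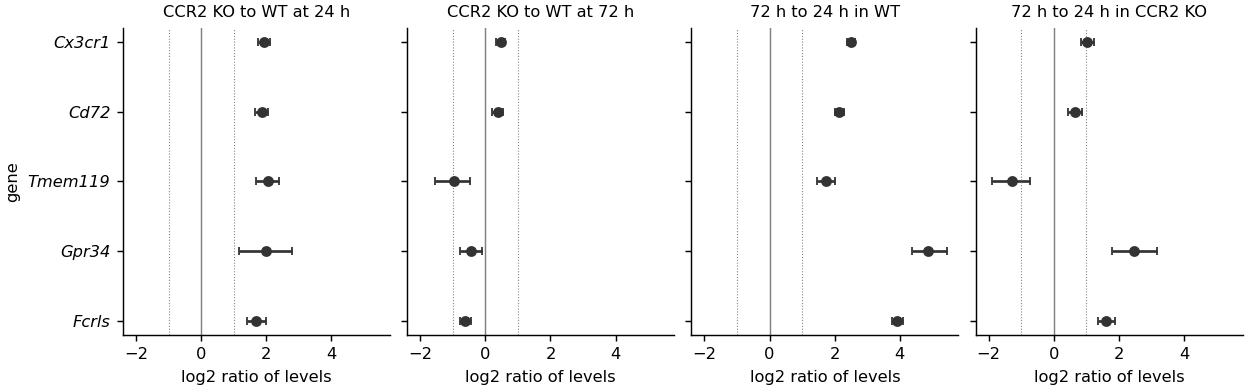
Log2 ratio of CPM of each gene in the 4 comparisons of Mφ-gated cells, with the solid line at 0, the dotted lines at a 2-fold difference in either direction and bars for the exact 95% interval (counting error only). The CCR2 KO to WT ratios all lay to the right of 0 at 24 h (3.24 to 4.12 as plain ratios), and at 72 h they lay on both sides of it, from 0.509 for Tmem119 to 1.38 for Cx3cr1.

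The level of a gene in summed cells does not tell more cells from more RNA per cell, so the share of cells with a UMI was counted at equal depth. Thinned to 5000 UMIs per cell, Cx3cr1 was found in 9.61% (7.997 to 11.4) of 1197 Mφ-gated cells in WT 24 h, 19.9% (14.4 to 26.4) of 186 in CCR2 KO 24 h, 40.2% (36.9 to 43.7) of 825 in WT 72 h and 38.8% (29.9 to 48.3) of 116 in CCR2 KO 72 h. With 91, 30, 84 and 24 shallower cells kept and no thinning, the shares were 13.3, 19.4, 56.9 and 52.1%. At 1000 UMIs, a depth that most other classes reach, Cx3cr1 was found in 2.73, 9.81, 16.1 and 17.6% of Mφ-gated cells and in 0 of 12, 65, 48 and 102 T cells, where 3 cells of each number, the limit used for a count of 0, would be 25.0, 4.62, 6.25 and 2.94%. That limit is on T cells with a UMI at this depth, not on T cells that express the gene. Before thinning the T cells had medians of 4817 to 7484.5 UMIs, against 14238 to 16009 in the Mφ-gated cells, and 1 T cell in each library but WT 24 h held a Cx3cr1 UMI. At 72 h the shares of the genotypes lay within 2 percentage points of each other at 5000 UMIs, inside each other's intervals, while at 24 h the intervals did not overlap and the share in CCR2 KO was above that in WT.

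The amount per positive cell moved as well. Thinned to 5000 UMIs, a Cx3cr1-positive Mφ held on average 1.90 UMIs in WT 24 h and 3.70 in CCR2 KO 24 h. At 72 h the thinned means were 2.14 UMIs in WT and 2.78 in CCR2 KO. The libraries were further apart without thinning, when cells were not at equal depth. Without thinning, a Cx3cr1-positive Mφ held on average 3.20 UMIs in WT 24 h, 9.50 in CCR2 KO 24 h, 4.12 in WT 72 h and 7.12 in CCR2 KO 72 h. In the 24 h libraries the transcripts were concentrated in few cells, as the top 10% of Mφ-gated cells held 92.3% of Cx3cr1 UMIs in WT and 82.5% in CCR2 KO, against 45.2 and 53.5% at 72 h. The Cx3cr1 transcripts of WT at 72 h were thus spread over more cells, at fewer UMIs per positive cell, than those of CCR2 KO at 24 h.

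Detection of the remaining genes also differed between 24 h and 72 h. Cd72 was in 7.60, 20.97, 31.5 and 38.8% of thinned Mφ-gated cells (5000 UMIs; WT 24 h, CCR2 KO 24 h, WT 72 h, CCR2 KO 72 h), and Fcrls in 4.18, 13.4, 45.5 and 40.5%. Tmem119 was in 3.84, 10.8, 12.4 and 5.17%, and Gpr34 in 0.752, 1.61, 18.8 and 17.2%. For Gpr34 the 24 h libraries thus held hardly any positive cell of either genotype, and the 72 h libraries held similar shares.

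As a share of all sorted leukocytes, Cx3cr1-positive Mφs were fewer in CCR2 KO than in WT at both times. They made up 171 of 1674 cells (10.2%, 8.81 to 11.8) in WT 24 h, 42 of 1774 (2.37%, 1.71 to 3.19) in CCR2 KO 24 h, 517 of 1315 (39.3%, 36.7 to 42.0) in WT 72 h and 73 of 1048 (6.97%, 5.50 to 8.68) in CCR2 KO 72 h. At 24 h the direction was opposite to that of the level within the gate, with Mφ-gated cells at 76.9% of WT leukocytes and 12.2% of CCR2 KO leukocytes at that time. A share of sorted cells gives no number of cells per tissue.

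Single Mφs often held several of the 5 genes. At 5000 UMIs, at least 1 of the 5 genes was seen in 19.05, 29.6, 73.3 and 67.2% of cells (WT 24 h, CCR2 KO 24 h, WT 72 h, CCR2 KO 72 h), at least 2 in 5.26, 17.2, 45.0 and 43.1%, and at least 3 in 1.42 (0.829 to 2.26), 12.9 (8.45 to 18.6), 21.6 (18.8 to 24.5) and 22.4% (15.2 to 31.1). All 5 were seen in 0, 1, 14 and 1 cells. In CCR2 KO at 24 h most cells with 2 of the genes also held at least 1 more, whereas in WT at 24 h few cells held more than 1.

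**Figure D4:**
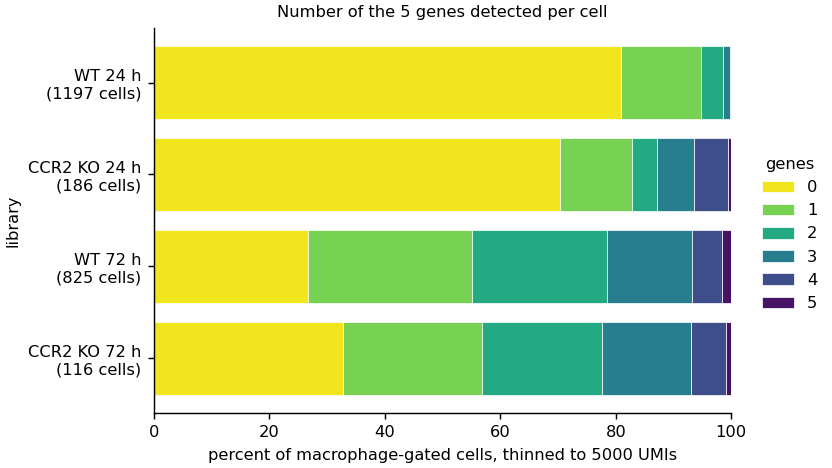
Share of Mφ-gated cells (percent, each cell thinned to 5000 UMIs) in which 0, 1, 2, 3, 4 or 5 of the 5 genes were detected, as 1 stacked bar per library. At least 3 genes were seen in 1.42% of cells in WT at 24 h and in 12.9, 21.6 and 22.4% in the other 3 libraries.

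In every library the shares of cells with Cd72, Fcrls and Gpr34 were higher among Cx3cr1-positive than Cx3cr1-negative Mφs. Cd72 was found in 28.7% of Cx3cr1-positive against 5.36% of Cx3cr1-negative Mφs in WT 24 h, 73.0 against 8.05% in CCR2 KO 24 h, 47.0 against 21.1% in WT 72 h and 53.3 against 29.6% in CCR2 KO 72 h, and the intervals of the paired shares overlapped only in the last (37.9 to 68.3 and 19.3 to 41.6%). Fcrls was found in 14.8 against 3.05%, 51.4 against 4.03%, 51.8 against 41.2% and 55.6 against 31.0%. The 2 shares were furthest apart in CCR2 KO at 24 h for both genes, and for Fcrls they were closest in WT at 72 h. Gpr34 was found in 3.48 against 0.462%, 8.11 against 0%, 26.8 against 13.4% and 28.9 against 9.86% of Cx3cr1-positive and Cx3cr1-negative cells. At 24 h these shares rested on 4 and 5 Gpr34-positive cells in WT and 3 and 0 in CCR2 KO. For Gpr34 the paired intervals were apart only in WT 72 h (22.1 to 31.9 and 10.5 to 16.7%).

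Tmem119-positive cells mostly held Cx3cr1 as well, except in WT at 24 h. Cx3cr1 was found in 19 of 46 Tmem119-positive cells in WT 24 h, 18 of 20 in CCR2 KO 24 h, 66 of 102 in WT 72 h and 5 of 6 in CCR2 KO 72 h. Among Tmem119-negative cells the share was 8.34, 11.4, 36.8 and 36.4%. Across single cells of each library, Pearson's r of Cx3cr1 with Tmem119 (log-scaled counts at 5000 UMIs) was 0.25, 0.64, 0.26 and 0.16, and with Cd72 0.26, 0.61, 0.32 and 0.12. These r values come from sparse counts of cells that share a library and are given as a description.

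Cx3cr1-positive Mφs also differed from Cx3cr1-negative ones in genes that were not used to choose the group. At 5000 UMIs per cell, Cd81, a tetraspanin of resident muscularis Mφs, stood at 189.6 CPM in Cx3cr1-positive and 35.7 in Cx3cr1-negative cells in WT 24 h, 1659 and 152 in CCR2 KO 24 h, 475 and 255 in WT 72 h, and 729 and 361 in CCR2 KO 72 h. C1qa, a complement C1q chain, stood at 2593 and 1379.7 CPM, 7454 and 1185 CPM, 5129.5 and 4273 CPM, and 4036 and 1969 CPM in the same order. Both genes were higher in the Cx3cr1-positive cells of every library. The whole list of resident muscularis Mφ genes, to which Cd81 belongs, did not follow in WT, where its summed level was 917 CPM in Cx3cr1-positive and 1188 in Cx3cr1-negative cells at 24 h and 1990.4 and 2264 CPM at 72 h. In CCR2 KO the sum was 2762 and 1416 CPM at 24 h and 2978 and 2093 CPM at 72 h. Tgfbr1, a receptor chain for TGF-β, on which microglial identity depends, was at 130.4 and 34.9, 249 and 64.4, 155 and 54.8, and 133 and 93.0 CPM, higher in all 4 libraries, with an interval of the ratio that spans 1 in CCR2 KO 72 h (0.845 to 2.43).

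Genes of the injury-associated states ran the other way. Arg1 (arginase 1) was at 468 CPM in Cx3cr1-positive and 1686 CPM in Cx3cr1-negative Mφs in WT 24 h, 5.41 (1 UMI) and 831 in CCR2 KO 24 h, 123 and 244 in WT 72 h, and 53.3 and 535 in CCR2 KO 72 h. Spp1 (osteopontin) was at 290.4 and 1069, 27.0 and 5227, 338 and 509.5, and 35.6 and 1299 CPM, and Fabp5, a fatty acid-binding protein, at 906 and 2123, 64.9 and 3545, 208 and 439, and 107 and 344 CPM. All 3 were lower in Cx3cr1-positive cells of all 4 libraries. As a ratio, the gap was wider in the CCR2 KO libraries than in WT at the same time for all 3 genes. As a difference in CPM it was not wider for Arg1 at 24 h. These differences between libraries were not tested. Ccr2 itself was higher in Cx3cr1-positive than Cx3cr1-negative Mφs of WT, at 1264 and 769 CPM at 24 h and 1204 and 1022 CPM at 72 h.

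H2-Ab1 and Apoe were higher in Cx3cr1-positive cells. H2-Ab1, an MHC class II chain, was at 3917 and 1395 CPM in WT 24 h, 6027 and 2846 in CCR2 KO 24 h, 7130 and 4447 in WT 72 h, and 2716 and 2335 in CCR2 KO 72 h. Apoe (apolipoprotein E) was at 10063 and 4089, 10416 and 2554, 31495 and 22731, and 6049 and 2707 CPM. Before thinning, Cx3cr1-positive and Cx3cr1-negative cells had medians of 12823 and 15408, 14911 and 19322, 13862 and 15624, and 17082 and 17756 UMIs. Neutrophil markers summed to 125 against 549, 86.5 against 255, 130.1 against 133, and 444 against 203 CPM in the same comparison, and their part in these values was not tested.

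When Mφ-gated cells were clustered without these genes and without Ccr2, the highest levels of Cx3cr1, Cd72 and Tmem119 fell in 1 group (sub-cluster 7). It held 146 cells, namely 21, 48, 44 and 33 in WT 24 h, CCR2 KO 24 h, WT 72 h, then CCR2 KO 72 h, and was led by Mmp13, Cadm1 and Lilra5. Over the 4 libraries its level was 440.3 CPM for Cx3cr1, 406 for Cd72, 84.5 for Tmem119, 65.0 for Gpr34 and 255 for Fcrls, and it held 23.9% of the Cx3cr1 UMIs of all Mφ-gated cells. Its other genes were Cd81 at 1230.3 CPM, Mrc1 (the mannose receptor CD206) at 922 and Ccr2 at 89.6, with Ly6c2 at 0. Cadm1 is also a marker of type 1 dendritic cells in the lists used here.

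As ratios of CPM, the libraries were closer within this Mmp13 group in Cx3cr1, Cd72, Gpr34 and Fcrls than over all Mφ-gated cells. In Tmem119 they were not closer. Cx3cr1 was at 282 CPM (219.9 to 356) in WT 24 h, 489.9 (440.3 to 543) in CCR2 KO 24 h, 483 (422 to 551) in WT 72 h and 408 (355 to 467) in CCR2 KO 72 h. Cd72 was at 427 (349.8 to 517), 417 (371 to 467), 514 (450.5 to 584) and 284 CPM (240.2 to 334). Fcrls was at 117 (78.3 to 168), 204 (172 to 239), 442 (384 to 507) and 226 CPM (187 to 271). The Cd72 levels of the 24 h libraries overlapped here, where over all Mφ-gated cells they differed 3.62-fold. Tmem119 was at 36.3, 144, 88.9 and 19.3 CPM, resting on 9, 105, 41 and 10 UMIs. Gpr34 was at 28.2, 30.3, 141 and 63.8 CPM, resting on 7, 22, 65 and 33 UMIs. The group made up 48 of 216 Mφ-gated cells in CCR2 KO at 24 h and 21 of 1288 in WT.

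Elsewhere the 5 genes followed separate patterns. The group with Apoe and Igf1 among its leading genes (sub-cluster 0), with 417 of its 431 cells from WT 72 h, held Cx3cr1 at 213 CPM, Cd72 at 190.3 and Tmem119 at 41.3, and with the libraries pooled it was highest of all groups in Gpr34 (81.7) and Fcrls (313). Within WT 72 h, which gave nearly all of its cells, the Mmp13 group was above it in both, at 141 against 83.1 CPM for Gpr34 and 442 against 311 CPM for Fcrls. The Ear2- and Mgl2-led group (sub-cluster 6), 176 of 181 cells from WT 72 h, held Cx3cr1 at 105 CPM and Fcrls at 111 but Cd72 at only 37.3, Tmem119 at 10.4 and Gpr34 at 8.26. Dividing cells (sub-cluster 8), 67 from WT and 53 from CCR2 KO at 72 h among 126, held Cx3cr1 at 164 CPM, Cd72 at 118, Tmem119 at 17.1, Gpr34 at 32.9 and Fcrls at 189.9. A group that is mostly 1 library may be that library and not a cell state.

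A group led by Cxcl13 and Prg4 (sub-cluster 5) held Cx3cr1 at 49.5 CPM and Fcrls at 78.8, with Cd72 at 18.1, Tmem119 at 12.6 and Gpr34 at 10.5. Among groups drawn mainly from the 24 h libraries, Cx3cr1 was highest in the interferon-response cells. The group led by Fabp5 and Spp1 (sub-cluster 1) held Cx3cr1 at 9.75 CPM, and the group led by Csf3, Inhba and Cxcl3 (sub-cluster 3) held Cx3cr1 at 4.39 and no Gpr34 UMI. The interferon-response group (sub-cluster 4), with 258 of 278 cells from WT 24 h, held Cx3cr1 at 82.1 CPM, Cd72 at 62.5, Tmem119 at 23.1, Gpr34 at 5.90 and Fcrls at 26.6. In the S100a8-, Hp- and Chil3-led group (sub-cluster 2), which has the genes of Ly6c monocytes and also neutrophil markers among its leading genes, Cx3cr1 was at 14.0, 44.7, 85.7 and 84.7 CPM by library and Cd72 at 5.15, 8.94, 0 and 0. Cx3cr1 was thus above Cd72 in these cells, as it was over pooled libraries in most other groups, the Ear2 and Mmp13 groups among them. Cd72 was above Cx3cr1 in sub-clusters 1 (14.0 against 9.75 CPM), 3 (12.1 against 4.39 CPM) and 9 (38.4 against 18.5 CPM). The S100a8 group, a Cd209a-led group (sub-cluster 9) and a group of 15 cells with Cxcr2 (sub-cluster 10) had at least 2 markers of 1 other class among their leading genes. Without these 3 groups, which leaves 925 cells in WT and 160 in CCR2 KO at 24 h, the CCR2 KO to WT differences at 24 h were 2.04, 1.996, 1.97, 1.65 and 1.69 on log2(CPM + 1) for Cx3cr1, Cd72, Tmem119, Gpr34 and Fcrls.

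**Figure D5:**
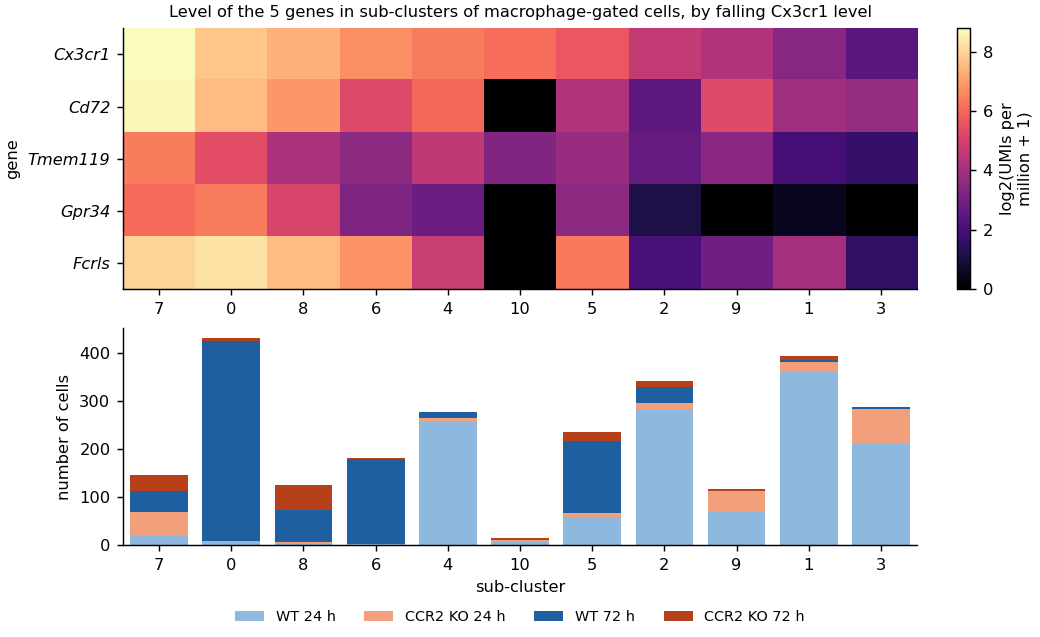
Upper panel, level of the 5 genes as colour, log2(CPM + 1) of UMIs summed over the 4 libraries, in the sub-clusters of Mφ-gated cells, ordered by falling Cx3cr1. Lower panel, number of cells of each sub-cluster, split by library. The Mmp13-led sub-cluster 7 stood highest for Cx3cr1 (440.3 CPM), Cd72 (406) and Tmem119 (84.5), and the Apoe-led sub-cluster 0 for Gpr34 (81.7) and Fcrls (313), all over pooled libraries. Within WT 72 h sub-cluster 7 was above sub-cluster 0 in Gpr34 and Fcrls as well.

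Among dividing cells the level of Cx3cr1 was above that of the rest in 3 of the 4 libraries. In cells with at least 2 cell-cycle genes and in those with fewer, Cx3cr1 was at 177 and 102 CPM in CCR2 KO 24 h, 169 and 157 in WT 72 h and 231 and 203 in CCR2 KO 72 h. The intervals overlapped at 72 h, at 149.98 to 189 and 150.3 to 165 CPM in WT and 207 to 258 and 176 to 234 CPM in CCR2 KO. In WT 24 h it was at 2.81 and 28.6 CPM. The dividing cells numbered only 17 in WT 24 h and 9 in CCR2 KO 24 h, and those of CCR2 KO 72 h were 65 of 140.

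Of the fractalkine pathway, Adam10 and Adam17 (proteases that shed fractalkine), Ctss (cathepsin S), Gnai2 (a G protein subunit downstream of the receptor) and Itgb2 (an integrin chain) were tested, and 0 of 5 were 2-fold apart in any of the 4 comparisons, with medians of −0.02, −0.15, 0.14 and 0.0028 on log2. With 2.64, 4.77, 6.64 and 9.25% of all genes tested higher and 1.04, 2.1, 5.67 and 4.17% lower in these comparisons, 0 of 5 is near the background and nothing is read from it. Adam10, for example, stood at 97.8, 99.6, 119 and 106 CPM. The ligand gene Cx3cl1 had 1, 2, 6 and 0 UMIs in Mφ-gated cells and was not tested. Of the partners of the remaining receptors, Sema4d, Ptpn6 and Abhd16a (an enzyme that makes lysophosphatidylserine) were tested, again with 0 of 3 apart in each comparison, and Sema4d stood at 46.5, 57.9, 80.8 and 50.7 CPM. Pla1a, another lysophosphatidylserine-producing enzyme, did not reach 20 CPM.

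The tested microglia genes beside the 5 were mostly higher at 72 h than at 24 h in WT, and mixed in the genotype contrasts. Of 24 listed, 23 were in the count tables. From 24 h to 72 h in WT, 12 of 17 tested were at least 2-fold higher and 0 lower, beside 6.64% and 5.67% of all genes tested, with a median log2 difference of 1.12 against −0.03 for all genes. They included Trem2, a lipid-sensing receptor, at 150.4 and 479.6 CPM (1.67 on log2), Csf1r, the receptor for the Mφ growth factor, at 435 and 985 CPM (1.18), and P2ry12, the purinergic receptor of microglia, at 13.6 and 34.2 CPM (1.27). In CCR2 KO over the same time 3 of 17 were higher, namely P2ry12, Selplg and Ltc4s, and Rhob was lower, beside 9.25% and 4.17% of all genes tested, with a median of 0.20 beside 0.14 for all genes.

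In CCR2 KO against WT at 24 h, 2 of 16 microglia genes were at least 2-fold higher, namely Tgfbr1 (38.5 in WT and 106 CPM in CCR2 KO) and Rhob (151 and 315 CPM), and Ltc4s (leukotriene C4 synthase) was lower, at 20.2 and 5.92 CPM, beside 2.64% and 1.04% of all genes tested. C1qa stood at 1537 and 2209.7 CPM, under 2-fold, and the median of the 16 was 0.22. At 72 h 0 of 17 were higher and 2 were lower in CCR2 KO, namely Trem2 at 479.6 in WT and 155 CPM in CCR2 KO and Ltc4s at 279 and 72.2 CPM, beside 4.77% higher and 2.1% lower over all genes tested, and the median was −0.47. P2ry12, among the most used microglia markers, was at 13.6, 11.8, 34.2 and 31.7 CPM in WT 24 h, CCR2 KO 24 h, WT 72 h, then CCR2 KO 72 h, so that it was higher at 72 h than at 24 h in both genotypes.

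Genes of resident muscularis Mφs, a list also chosen with earlier results of these data known, were mixed as well. Cd81 was at 48.4 and 369 CPM in WT and CCR2 KO at 24 h and at 324 and 461 CPM at 72 h, and Cd9, another tetraspanin, at 83.5 and 528, then 115 and 188 CPM. These 2 were the higher ones of 8 tested at 24 h, whereas Cd163 (77.0 in WT and 25.8 CPM in CCR2 KO), Cbr2 (51.4 and 14.5 CPM) and F13a1 were lower. The haemoglobin scavenger receptor Cd163 and the fractalkine receptor thus went opposite ways in CCR2 KO at 24 h. At 72 h 1 of 11 tested, Cd4, was higher in CCR2 KO (10.4 in WT and 49.4 CPM in CCR2 KO) and 3 were lower. From 24 h to 72 h, 5 of 9 were at least 2-fold higher in WT and 0 lower, and in CCR2 KO 7 of 10 were higher and 1, Cd9, was lower. The medians of the list were −0.62 and 0.23 on log2 for CCR2 KO to WT at 24 h and 72 h, and 1.13 and 1.19 for 72 h to 24 h in WT and CCR2 KO, beside −0.06, 0.12, −0.03 and 0.14 for all genes. The shares of all genes tested that were 2-fold higher and lower were 2.64% and 1.04%, 4.77% and 2.1%, 6.64% and 5.67%, and 9.25% and 4.17% in the same order of comparisons.

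The genes whose pattern was most like that of Cx3cr1 were sought by 2 measures. Over 19 class-by-library sums of at least 20 cells and 9345 genes, Pearson's r of log2(CPM + 1) with Cx3cr1 was highest for Etv1 and Cmklr1 (0.86 each), Tmem37 (0.85), Srgap2 (0.84) and Igf1 (0.83). The 19 sums share libraries and include the 4 of Mφ-gated cells, where Cx3cr1 is highest, and with Spearman's rank measure 3 of the 10 nearest genes were the same. Across 2324 single Mφ-gated cells and 7454 genes, as the mean of the 4 within-library values, the nearest were Tmem176b (0.38), Cd81 (0.36) and Apoe (0.36), with Lilra5 at 0.34. Cd72 ranked 10 and Tmem119 ranked 11 by this measure, both at 0.33, Fcrls ranked 17 at 0.31 and Gpr34 ranked 66 at 0.20.

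Taken from the side of each other gene, Cx3cr1 ranked 2 for Tmem119 (0.33), 4 for Gpr34 (0.20), 8 for Cd72 (0.33) and 8 for Fcrls (0.31). Pmepa1 came first for both Tmem119 (0.38) and Gpr34 (0.24), Cd81 for Cd72 (0.44) and Ms4a7 for Fcrls (0.39). Between Gpr34 and Fcrls the value was 0.12. These are low values in sparse counts, and they rank genes only.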

How the data were processed

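CD45+ cells of the muscularis were profiled by 3′ single-cell RNA-seq in 4 libraries, each pooled from several mice. Per the labels, the authors processed reads with Cell Ranger (3.0.2; GRCm38/mm10), naming Seurat as well, and the deposited values are raw UMI counts per gene and cell, after cells with fewer than 200 genes or over 10% mitochondrial UMIs were removed. The annotation release and any doublet removal are not given in the sources used here. The genes and gene lists were chosen with earlier results of these data known.

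From these counts, each cell was assigned to the class whose markers had the highest mean log-normalized level (at least 0.5, 2 markers detected, 0.25 above the next class), and UMIs were summed per class and library and expressed as CPM. With 1 library per group there was no test. Levels carry exact Poisson and shares exact Clopper-Pearson 95% intervals, and ratios an interval from the exact binomial split of the 2 counts. Genes at 20 CPM or more in either group were called at a 2-fold difference of log2(CPM + 1). The rule was run on simulated Poisson counts without spread between cells, mice or libraries, so that check does not cover such spread. For shares, cells were thinned to 1000 or 5000 UMIs, and shallower cells were left out. Mφ-gated cells were sub-clustered (Leiden, scanpy 1.11.5, leidenalg 0.10.2, resolution 1, 2000 variable genes, 30 components) without the 5 genes and Ccr2. Scrublet marked 11 of 5811 cells as doublets (0.189%), too few to be relied on, and doublets were kept. Named genes were the 5 genes, fixed lists (the fractalkine pathway, partners, microglia genes, resident Mφ genes, states) and the 10 genes of highest r with each of the 5. Median depth was 3281.5 to 12859 UMIs per cell, and 14238 to 16009 in Mφ-gated cells. Alternatives were scaling by edgeR 4.0.16 TMM or DESeq2 1.42.0 size factors, per-cell means, clusters, a stricter gate, subsets of cells, a pseudocount of 5 CPM, no filter and other thinning. The subsets without cells of the highest 2% of Scrublet scores, without the top cell per gene and library, and without sub-clusters led by markers of another class were chosen after seeing the data. Python 3.11.15, numpy 2.4.6, scipy 1.17.1, pandas 2.3.3, matplotlib 3.10.9 and R 4.3.3 were used. Promoter windows and their motif share came from RefSeq (GRCm38.p6).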

Additional observations from a re-analysis of the deposited data

Results flagged for a closer look

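For 3 genes the difference between groups pointed in opposite directions in the Mφ-gated cells. Here it is given as the log2 ratio of CPM, with 1 library on each side, so whether the directions differ was not tested. Tmem119 was higher in CCR2 KO than in WT at 24 h (2.04) and lower at 72 h (−0.97), and from 24 h to 72 h it was higher in WT (1.72) and lower in CCR2 KO (−1.29). A single dividing cell of 47033 UMIs held 17 of the 33 Tmem119 UMIs of CCR2 KO at 72 h, and without the top cell of each library the differences on log2(CPM + 1) were −1.79 for CCR2 KO to WT at 72 h and −1.999 for 72 h to 24 h in CCR2 KO. Gpr34 was at 1.98 for CCR2 KO to WT at 24 h and −0.45 at 72 h, and Fcrls at 1.70 and −0.61. These 3 genes share the 4 libraries, and their directions are not independent of each other.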

How the results depend on the processing

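No paired analysis was possible because each group is 1 library. Of 260 alternative values for the 5 genes' log2 differences, 206 moved by less than counting error, 50 moved by more and 4 changed direction. All 4 concerned CCR2 KO to WT at 72 h. Cx3cr1 was at −0.25 with at most 5% mitochondrial UMIs and −0.13 among cells with no cell-cycle transcript. Cd72 was at −0.62 with at most 5% mitochondrial UMIs and −0.041 with clusters in place of gates. Among cells with fewer than 2 cell-cycle genes, Cx3cr1 stayed higher in CCR2 KO, at 203 against 157 CPM in WT. In that comparison Cx3cr1 was at 0.30 with TMM scaling, 0.32 as a mean of per-cell CPM and 0.059 with clusters. At 24 h it was at 1.54 among cells with no cell-cycle transcript. For 72 h to 24 h in WT, Cx3cr1 was at 2.31 with TMM and 2.31 with a pseudocount of 5 CPM, 2.61 with at most 5% mitochondrial UMIs and 2.25 without sub-clusters led by markers of another class. In CCR2 KO it was at 0.79 with TMM, 0.82 with DESeq2 size factors, 0.63 with clusters and 0.48 with at most 5% mitochondrial UMIs. It was at 0.80 among cells with no cell-cycle transcript and 0.81 without those sub-clusters, and all of these values were under 2-fold. The causes were not tested. With no filter on low values, 676, 1262, 1734 and 2214 genes were 2-fold apart for CCR2 KO to WT at 24 h and 72 h and 72 h to 24 h in WT and CCR2 KO, against 216, 441, 764 and 866, as more genes were then counted. The share of cells with Cx3cr1 moved with depth, to 9.61, 19.9, 40.2 and 38.8% at 5000 UMIs and 13.3, 19.4, 56.9 and 52.1% with no thinning (WT 24 h, CCR2 KO 24 h, WT 72 h, CCR2 KO 72 h). At least 2 of the genes were seen in 0.937, 6.54, 10.4 and 11.8% at 1000 UMIs, and in 9.78% of WT 24 h and 61.4% of WT 72 h cells with no thinning. At 1000 UMIs no Tmem119 UMI was seen in 136 cells of CCR2 KO at 72 h, against 5.17% of cells at 5000 UMIs.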
